A study of Homo sapiens with 6 samples.

Results

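The genes described here are the sensors of double-stranded RNA and the proteins that pass their signal on, measured in the human gastric adenocarcinoma line AGS 48 hours after siRNA was introduced. The 10 genes are RIGI (DDX58 in older annotation), IFIH1, DHX58, DDX60, TLR3, EIF2AK2, MAVS, TICAM1, IRF3 and ADAR, chosen by name from the 18417 genes tested. Each of the 10 had 1 transcript cluster, the set of probes that stands for a gene on the Affymetrix Human Gene 1.0 ST array, so no choice between clusters was needed. The series compared 3 arrays of cells given siRNA against CTNNB1, the beta-catenin gene, with 3 arrays of cells given a non-targeting control siRNA. The sample titles call these arrays biological replicates, but no label gives separate cultures, so a p-value here covers the spread among these 6 arrays, which may be technical. Both groups were transfected with Dharmacon siRNA, itself a short RNA duplex, and cells without siRNA were not analysed here. A response common to both siRNAs therefore does not appear in the differences given below. AGS is 1 cell line, and the sources used here do not give the siRNA sequences or how many were used.

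Long or unusual double-stranded RNA in the cytoplasm is a sign of viral infection, and epithelial cells detect it with several proteins. The helicases RIG-I (RIGI) and MDA5 (IFIH1) bind it and signal through the adaptor MAVS on mitochondria, while TLR3 binds it in endosomes and signals through the adaptor TRIF (TICAM1). Both routes activate the transcription factor IRF3, which switches on interferon genes, and interferon in turn raises the transcription of most of the sensors through a promoter element called the interferon-stimulated response element (ISRE). The kinase PKR (EIF2AK2) stops translation when it binds such RNA, and the deaminase ADAR1 (ADAR) edits the cell's own duplexes so that they are not taken for foreign ones.

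To show where the ISRE lies in these genes, promoter windows of 300 bases, from 250 before to 50 after an annotated start, were read from RefSeq (GRCh38.p14) for the 8 of 10 genes that the table holds. The search used the core letters GAAANNGAA on both strands, with overlapping matches allowed. Of these 8 genes, 4 held a match, namely IFIH1, DDX60, TLR3 and EIF2AK2, while 9.86% of the 27305 genes in the table did so. No match to the core was found in the windows of RIGI, MAVS, TICAM1 or ADAR, which says only that these letters are not in those windows. The 4 windows with a match are shown because IFIH1 and DDX60 had arrays that did not overlap between the groups, while those of TLR3 and EIF2AK2 did overlap. DHX58, whose arrays did not overlap either, and IRF3 had no window to search. Each window is written 5′ to 3′ on the strand of the gene, with the matches in capitals.
IFIH1, chr2:162318635-162318934, minus strand: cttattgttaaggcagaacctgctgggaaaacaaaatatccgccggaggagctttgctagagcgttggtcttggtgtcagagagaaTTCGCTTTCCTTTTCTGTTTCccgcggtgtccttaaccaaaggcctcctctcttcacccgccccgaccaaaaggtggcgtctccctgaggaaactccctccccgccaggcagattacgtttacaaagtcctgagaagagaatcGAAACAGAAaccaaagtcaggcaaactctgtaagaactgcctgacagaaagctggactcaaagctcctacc
DDX60, chr4:168318703-168319002, minus strand: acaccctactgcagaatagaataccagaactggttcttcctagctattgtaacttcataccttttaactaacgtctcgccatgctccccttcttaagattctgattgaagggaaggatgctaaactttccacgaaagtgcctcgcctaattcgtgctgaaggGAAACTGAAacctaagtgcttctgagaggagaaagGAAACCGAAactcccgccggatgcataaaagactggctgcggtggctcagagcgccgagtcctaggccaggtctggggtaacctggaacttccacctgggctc
TLR3, chr4:186068906-186069205, plus strand: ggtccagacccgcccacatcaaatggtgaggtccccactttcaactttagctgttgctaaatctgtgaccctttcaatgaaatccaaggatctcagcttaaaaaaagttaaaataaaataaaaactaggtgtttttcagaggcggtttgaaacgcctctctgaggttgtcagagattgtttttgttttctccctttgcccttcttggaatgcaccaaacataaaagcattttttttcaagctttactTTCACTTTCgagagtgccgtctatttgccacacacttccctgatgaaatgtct
EIF2AK2, chr2:37156931-37157230, minus strand: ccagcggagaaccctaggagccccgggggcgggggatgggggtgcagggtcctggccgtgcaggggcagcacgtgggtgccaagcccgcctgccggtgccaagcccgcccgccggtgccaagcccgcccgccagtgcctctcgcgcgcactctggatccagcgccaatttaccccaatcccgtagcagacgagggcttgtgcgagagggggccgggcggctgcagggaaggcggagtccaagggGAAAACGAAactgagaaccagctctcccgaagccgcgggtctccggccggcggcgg
In DDX60 the matches were GAAACTGAA and GAAACCGAA, beginning 88 and 53 bases before the start. IFIH1 had 4 matches. TTCGCTTTC, TTCCTTTTC and TTCTGTTTC overlap one another, beginning 164, 158 and 152 bases before the start, and GAAACAGAA begins 21 bases before it. TLR3 held TTCACTTTC beginning 3 bases before its start, and EIF2AK2 held GAAAACGAA beginning 6 bases before it. CTTTGAT, a site form of the TCF and LEF factors that beta-catenin binds, occurred in none of the 8 genes and in 3.18% of all genes. A match is a description of the sequence and was not tested for binding.

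The silenced gene was checked first. CTNNB1 was 10.27, 10.78 and 10.58 on the log2 scale on the CTNNB1 siRNA arrays, against 11.92, 11.76 and 11.75 on the control siRNA arrays. Every CTNNB1 siRNA array lay below every control array, so the target matched the labels, with 41.5% of the control level left (95% confidence interval 31.8% to 54.2%). The first CTNNB1 siRNA replicate was the least like the rest, with Pearson correlations of 0.962 to 0.965 across transcript clusters, against 0.983 to 0.988 among the other pairs. The 7 epithelial markers all lay above the level taken as dim, a mean of 5.36, under which 40% of tested clusters fall. Of 17 measured markers of lymphocytes, myeloid cells, fibroblasts and endothelium, 14 were dim, PTPRC, CD3E and PECAM1 among them. The myeloid markers CD68 (mean 8.27) and CSF1R (5.85) and the fibroblast marker COL1A1 (6.74) were not dim. The mean of the epithelial markers moved with the groups, at 9.94 to 10.56 on CTNNB1 siRNA arrays and 9.40 to 9.55 on control arrays. Its part in the results below was not tested.

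None of the 10 genes passed limma over all 19460 transcript clusters after Benjamini-Hochberg adjustment (adjusted p from 0.816 to 0.95), where 0.00514% of clusters, a single one, did. That cluster was not the one of CTNNB1. Among the cytoplasmic helicase genes, RIGI had groups that overlapped. DDX60, IFIH1 and DHX58 had higher values on all 3 CTNNB1 siRNA arrays than on any control array, 1.97-fold, 1.32-fold and 1.25-fold in the means. That is 3 of 10 genes with groups apart and higher, where 6.81% of all clusters were so. Each array measured RNA from many cells, so more cells with a transcript and more of it per cell cannot be told apart. No member had its groups apart in the other direction, where 6.8% of all clusters did. The same 3 genes had an unadjusted p under 0.05 in limma, as 5.64% of clusters did, 3.04% with a higher value and 2.6% with a lower one. Over the 10 genes, 7 were higher and 3 lower in the means, with a median log2 difference of 0.13, against -0.0052 over all genes. With 3 arrays against 3, a 2-sided exact permutation test of a single gene cannot give a p below 0.1.

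**Figure D1:**
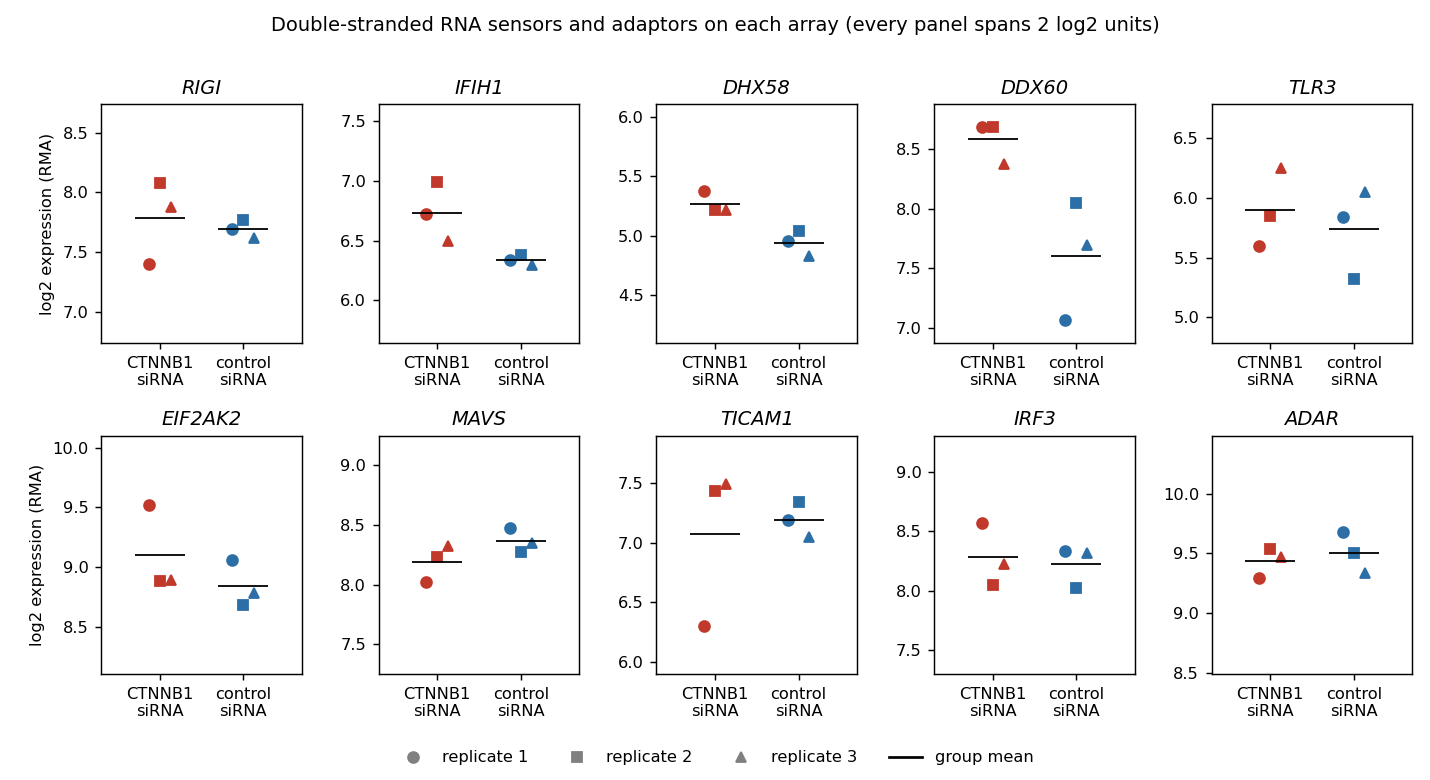
Log2 expression (RMA) of each gene on the 3 CTNNB1 siRNA arrays (red, left) and the 3 control siRNA arrays (blue, right), with symbols for the replicate number and a line at each group mean; every panel spans the same number of log2 units. The groups are apart for IFIH1, DHX58 and DDX60 and overlap for the other 7 genes.

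The RIG-I-like helicases are RIGI, IFIH1 and DHX58. RIGI, the sensor of short duplexes with a 5′ triphosphate, measured 7.40, 8.08 and 7.88 on the log2 scale on CTNNB1 siRNA arrays, against 7.69, 7.77 and 7.62 on control arrays. The groups overlapped, because replicate 1 of the CTNNB1 siRNA cells was the lowest of all 6 arrays and replicates 2 and 3 were the highest. The log2 difference of RIGI was 0.096 (SE 0.19, 95% interval -0.35 to 0.54). Without CTNNB1 siRNA replicate 1 it was 0.29 and the groups were apart, and without replicate 2 it was -0.051.

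IFIH1, which encodes MDA5, the sensor of long duplexes, measured 6.72, 6.99 and 6.49 on CTNNB1 siRNA arrays, against 6.34, 6.38 and 6.30 on control arrays. The control arrays lay within a narrow range (SD 0.043, n = 3) and all CTNNB1 siRNA arrays lay above it, with a wider spread (SD 0.25, n = 3). The log2 difference was 0.40 (SE 0.16, 95% interval 0.026 to 0.77), with an adjusted p of 0.816 in limma. It was 0.27 without CTNNB1 siRNA replicate 2 and 0.52 without replicate 3, and the groups were apart with any 1 array left out.

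DHX58 encodes LGP2, a helicase without the signalling domains of the other 2 that tunes their activity. It measured 5.38, 5.21 and 5.22 on CTNNB1 siRNA arrays, against 4.96, 5.04 and 4.83 on control arrays. Its groups were apart, and the log2 difference was 0.33 (SE 0.14, 95% interval 0.012 to 0.64; adjusted p = 0.816 in limma). DHX58 was the dimmest of the 10, at the 36.1st percentile of the cluster means and the only member under the dim level, where RMA compresses differences towards 0. Its difference stayed between 0.27 and 0.38 with any 1 array left out.

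DDX60, a large helicase of the antiviral response that has been reported to act with the RIG-I-like sensors, showed the largest difference among the 10. Its log2 values were 8.69, 8.68 and 8.38 on CTNNB1 siRNA arrays, against 7.06, 8.05 and 7.70 on control arrays. All CTNNB1 siRNA values lay above the highest control value, while the controls themselves spread over about 1 log2 unit (SD 0.50, n = 3, against 0.18, n = 3, in CTNNB1 siRNA cells). The log2 difference was 0.98 (SE 0.25, 95% interval 0.40 to 1.55), a 1.97-fold difference at the 99.8th percentile of all clusters. Its adjusted p in limma was 0.816 (unadjusted 0.00444). Control siRNA replicate 1 was the lowest control, and without it the difference was 0.71, while without control replicate 2, the highest control, it was 1.20. DDX60L, the neighbouring gene and closest relative of DDX60 on the same chromosome, measured 6.83, 7.03 and 6.85 on CTNNB1 siRNA arrays, against 6.23, 5.82 and 6.28 on control arrays. Its groups were apart as well (log2 difference 0.79, SE 0.17, adjusted p = 0.766 in limma). Whether probes of the 2 related genes pick up each other's transcripts was not tested.

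The genes whose profile over the 6 arrays lay nearest to that of DDX60, each centred on its control mean, were sought among 9250 genes at or above the median level. They were GLRX, a glutaredoxin gene, GCNT3, a mucin glycosylation enzyme gene, ARHGAP29, PIM1, a kinase gene, and TM4SF1, a membrane protein gene. Their root mean square distance was 0.056 log2 units for GLRX and 0.14, 0.16, 0.16 and 0.20 for the others in that order. GLRX measured 7.98, 8.15 and 7.72 on CTNNB1 siRNA arrays, against 6.43, 7.46 and 7.05 on control arrays, with the same low control replicate 1 as DDX60. These 5 genes were chosen by likeness to these values, so their differences are a description.

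TLR3, the endosomal receptor, measured 5.60, 5.85 and 6.25 on CTNNB1 siRNA arrays, against 5.84, 5.32 and 6.05 on control arrays. The groups overlapped, and the spread within each (SD 0.33 in CTNNB1 siRNA cells and 0.37 in control cells, n = 3 each) exceeded the log2 difference of 0.16 (SE 0.24, 95% interval -0.39 to 0.71). Leaving out CTNNB1 siRNA replicate 3 or control replicate 2 turned its sign, to -0.015 and -0.048.

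EIF2AK2, the gene of PKR, measured 9.52, 8.88 and 8.89 on CTNNB1 siRNA arrays, against 9.06, 8.68 and 8.78 on control arrays. Replicate 1 was the highest array in each group, and control replicate 1 lay above CTNNB1 siRNA replicates 2 and 3. The log2 difference was 0.26 (SE 0.21, 95% interval -0.23 to 0.74), and 0.046 without CTNNB1 siRNA replicate 1.

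**Figure D2:**
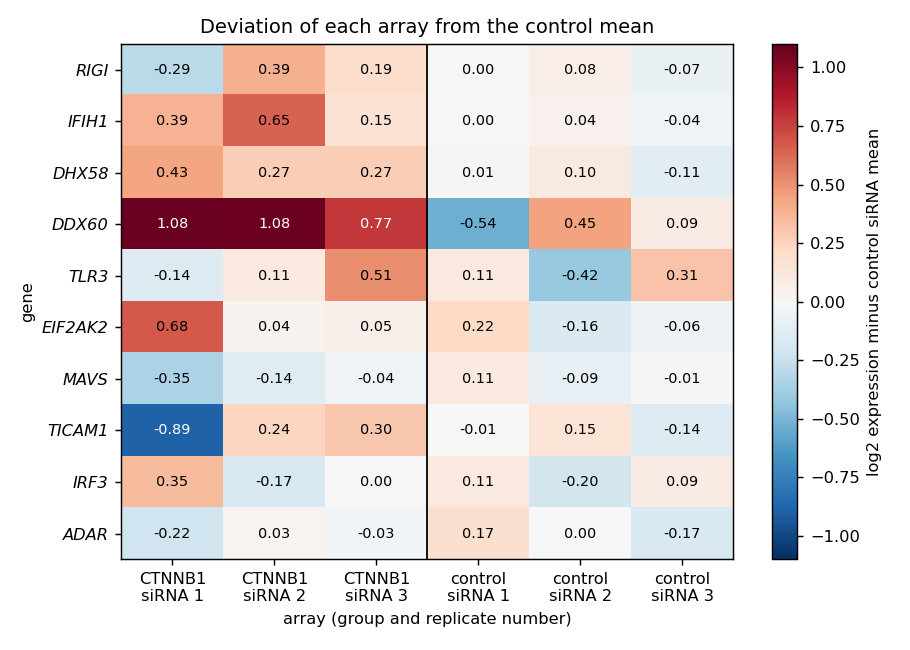
Log2 expression of each gene (rows) on each array (columns) minus the mean of the control siRNA arrays, red for higher and blue for lower. CTNNB1 siRNA replicate 1, the first column, is the highest array for 4 of the genes and the lowest for 4 others.

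The adaptor genes had no group apart. MAVS, the mitochondrial adaptor of RIG-I and MDA5, measured 8.02, 8.23 and 8.33 on CTNNB1 siRNA arrays, against 8.47, 8.27 and 8.35 on control arrays. Only CTNNB1 siRNA replicate 3 reached into the control range, and the log2 difference was -0.17 (SE 0.15, 95% interval -0.51 to 0.16). It stayed below 0 with any 1 array left out, from -0.24 to -0.087.

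TICAM1, the gene of TRIF, measured 6.30, 7.43 and 7.49 on CTNNB1 siRNA arrays, against 7.19, 7.34 and 7.05 on control arrays. Replicate 1 of the CTNNB1 siRNA cells was 0.89 below the control mean, while replicates 2 and 3 were 0.24 and 0.30 above it and higher than every control. The log2 difference was -0.12 (SE 0.31, 95% interval -0.83 to 0.59) over all arrays and 0.27 without that replicate, so its sign depended on 1 array.

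IRF3, the transcription factor on which both adaptor routes meet, measured 8.57, 8.05 and 8.23 on CTNNB1 siRNA arrays, against 8.33, 8.03 and 8.32 on control arrays. These values overlapped, with a log2 difference of 0.058 (SE 0.18, 95% interval -0.35 to 0.47), and -0.086 without CTNNB1 siRNA replicate 1. ADAR, whose cluster does not tell its constitutive and its interferon-induced form apart here, measured 9.29, 9.54 and 9.47 on CTNNB1 siRNA arrays, against 9.68, 9.50 and 9.34 on control arrays. Its log2 difference was -0.074 (SE 0.15, 95% interval -0.42 to 0.27), inside the spread of either group. The 95% intervals allow a ratio to control of 0.703 to 1.12 for MAVS, 0.782 to 1.38 for IRF3 and 0.746 to 1.21 for ADAR, so they do not show that these genes were unaltered.

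**Figure D3:**
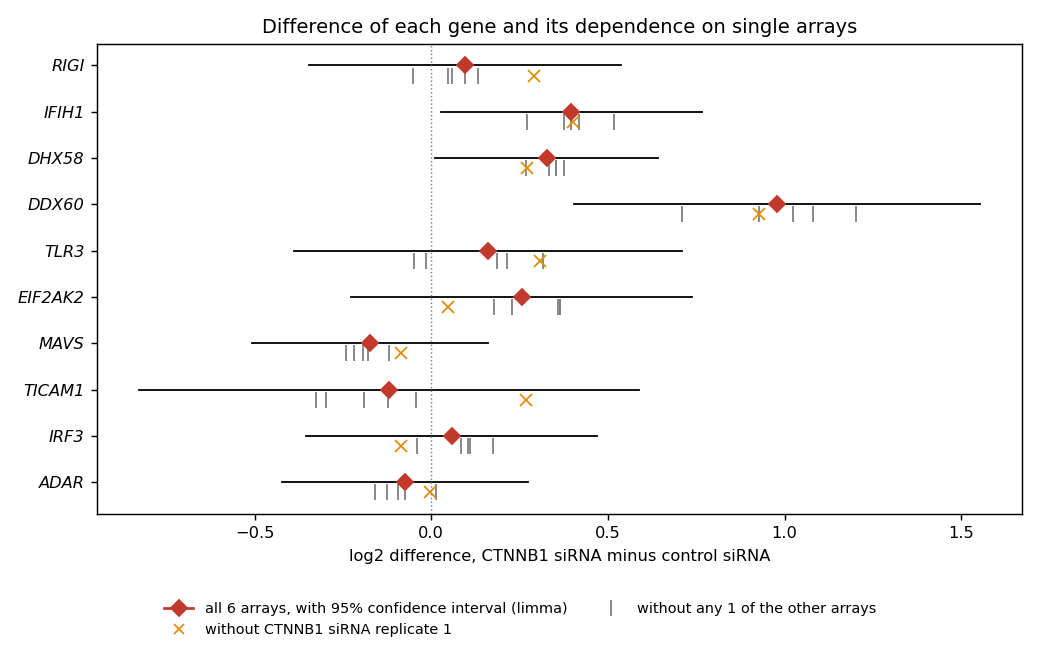
Log2 difference of each gene, CTNNB1 siRNA minus control siRNA, over all 6 arrays with its 95% confidence interval from limma (red diamond and line), without CTNNB1 siRNA replicate 1 (orange cross) and without each of the other arrays (grey ticks). With any 1 array left out, the differences of IFIH1, DHX58, DDX60 and EIF2AK2 stay above 0 and that of MAVS stays below 0. The difference of TICAM1 moves from -0.12 to 0.27 without CTNNB1 siRNA replicate 1.

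The least typical array bore unequally on the 10 genes. CTNNB1 siRNA replicate 1 was the highest of the 6 arrays for DHX58, DDX60, EIF2AK2 and IRF3, and the lowest for RIGI, MAVS, TICAM1 and ADAR. It had 5 genes above and 5 below the control mean, whereas CTNNB1 siRNA replicates 2 and 3 had 8 above and 2 below. Without it the median log2 difference of the 10 genes was 0.27, and 5 genes had their groups apart and higher, namely RIGI, IFIH1, DHX58, DDX60 and TICAM1, where 13.2% of all clusters were so with 2 arrays against 3. None had its groups apart and lower, where 12.5% of clusters did. The smallest adjusted p among the 10 in limma was then 0.58, for DDX60.

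The rest of the pathway was described with 11 gene lists, of whose 191 genes 179 were measured. None passed limma over all clusters (smallest adjusted p = 0.766, for DDX60L), and 12 had an unadjusted p under 0.05 with a higher value and 1 with a lower value, where 3.04% and 2.6% of all clusters did. Among the OAS genes, whose products make a small nucleotide messenger when they bind double-stranded RNA, OAS1 measured 9.93, 9.24 and 9.45 on CTNNB1 siRNA arrays, against 8.90, 8.63 and 8.74 on control arrays. OASL, a relative that enhances RIG-I signalling, measured 7.98, 7.24 and 7.15 on CTNNB1 siRNA arrays, against 6.31, 6.70 and 6.80 on control arrays. The groups were apart for both, with log2 differences of 0.78 (SE 0.20) and 0.85 (SE 0.25). They overlapped for OAS2 (0.25) and OAS3 (0.17). The median of this list's 6 measured genes was 0.21, and 0 passed in either direction.

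Below the sensors, 24 kinases, ubiquitin ligases and scaffolds had a median log2 difference of 0.058, with 14 higher, 10 lower and 0 past the threshold. TBK1 and IKBKE, the kinases that phosphorylate IRF3, differed by 0.090 (SE 0.14) and -0.084 (SE 0.13). IFIT3, which bridges MAVS and TBK1 and is itself interferon-induced, differed by 0.45 (SE 0.15), and IRF7, the inducible relative of IRF3, by 0.31 (SE 0.14). These were the 2 of the 24 genes with groups apart and higher, where 6.81% of all clusters were so. In the same list 1 gene, RNF135 (-0.14), had groups apart and lower, where 6.8% of all clusters did. STING1, the adaptor of DNA sensing, differed by 0.30 (SE 0.15) at a dim level. The 18 negative regulators had a median of 0.066, with 12 higher and 6 lower, and TNIP1, a partner of A20, differed by 0.55 (SE 0.24). Of these 18, 2 had groups apart and higher and 1, PCBP2 (-0.16), apart and lower. CTNNB1 siRNA replicate 1 was the highest array for TNIP1. Among 15 Toll-like receptor genes and adaptors, of which 7 were dim, the median was -0.0019, with 6 higher and 9 lower. UNC93B1, which carries TLR3 to endosomes, differed by 0.20 (SE 0.14) with groups apart on the brightest of its 3 clusters. The adaptor genes TIRAP and MYD88 differed by -0.37 (SE 0.24) and -0.51 (SE 0.43), with groups that overlapped and CTNNB1 siRNA replicate 1 as the lowest array for both. The 12 mitochondrial and peroxisomal partners of MAVS had a median of 0.017, with VDAC1, a porin gene, at 0.30 (SE 0.13). COX5B, a respiratory chain subunit gene, differed by -0.64 (SE 0.40), again with overlapping groups and the lowest value on CTNNB1 siRNA replicate 1. No gene of these lists passed the threshold in either direction.

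PKR partners and the integrated stress response had a median of 0.067 over 14 genes, 9 higher and 5 lower. The difference was 0.32 (SE 0.14) for EIF2AK3, which encodes the related kinase PERK, and 0.090 (SE 0.26) for PRKRA, a protein activator of PKR. Other double-stranded RNA binding proteins and RNA editing genes had a median of -0.21 over 16 genes, with 6 higher and 10 lower. Of these, 4 had groups apart and lower, where 6.8% of all clusters were so. Among the 4 was ADAD1, which was dim, with a mean of 2.32. ZFR differed by -0.43 (SE 0.20), DROSHA, the nuclease of microRNA precursors, by -0.40 (SE 0.20), and DHX9, a helicase of nuclear duplexes, by -0.17 (SE 0.21). The median of this list was -0.069 without CTNNB1 siRNA replicate 1. Of 17 other helicase genes linked to nucleic acid sensing, 7 were higher and 10 lower, with a median of -0.075, and besides DDX60L, HELZ2 differed by 0.40 (SE 0.16). Groups were apart and higher for 2 of the 17, where 6.81% of all clusters were so, and apart and lower for 1, SNRNP200 (-0.15). No gene of these 3 lists passed the threshold either way.

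On the output side, IFNB1, the interferon gene that IRF3 activates, was dim on every array, at 2.75, 2.37 and 2.60 on CTNNB1 siRNA arrays, against 2.66, 3.24 and 3.22 on control arrays. Its log2 difference was -0.47 (SE 0.20) with overlapping groups. It was the 1 listed gene with a lower value at an unadjusted p under 0.05 in limma. IFNL1, an epithelial interferon gene, differed by 0.083 (SE 0.34). CCL5, a chemokine gene downstream of the sensors, measured 6.79, 7.13 and 6.95 on CTNNB1 siRNA arrays, against 6.21, 6.35 and 6.66 on control arrays, a log2 difference of 0.55 (SE 0.17) with groups apart. The interferon and output list had 8 of 14 genes higher and a median of 0.10, which ran from -0.052 to 0.33 with 1 array left out. Of these 14 genes, 7 were dim. All 13 measured genes of the interferon receptors and their signalling chain had higher means in CTNNB1 siRNA cells, where 49.1% of all genes did, with a median of 0.25. Their groups were apart for IL10RB (0.54, SE 0.17), IFNGR1 (0.62, SE 0.27), IFNAR2 (0.35, SE 0.16) and TYK2 (0.40, SE 0.19). CTNNB1 siRNA replicate 1 was the highest array for IL10RB, IFNGR1 and TYK2, and replicate 2 for IFNAR2. The median of this list was 0.28 without CTNNB1 siRNA replicate 1. IRF9, the DNA-binding subunit of the factor that binds the ISRE, differed by 0.21 (SE 0.17). Among 30 interferon-induced effectors 23 were higher and 7 lower, with a median of 0.16, where 49.1% of all genes were higher, and 8 had groups apart and higher, where 6.81% of all clusters did. IFIT2 differed by 0.79 (SE 0.27), IFI27 by 0.57 (SE 0.18) and PARP9 by 0.49 (SE 0.21). CTNNB1 siRNA replicate 1 was the highest array for IFIT2, IFI27 and PARP9. For IFIT2, CTNNB1 siRNA replicate 3 at 6.44 lay just above the highest control at 6.42. Without CTNNB1 siRNA replicate 1 the median of the effectors was 0.13. Of the genes in these last 3 lists, 0 passed the threshold in limma in either direction.

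**Figure D4:**
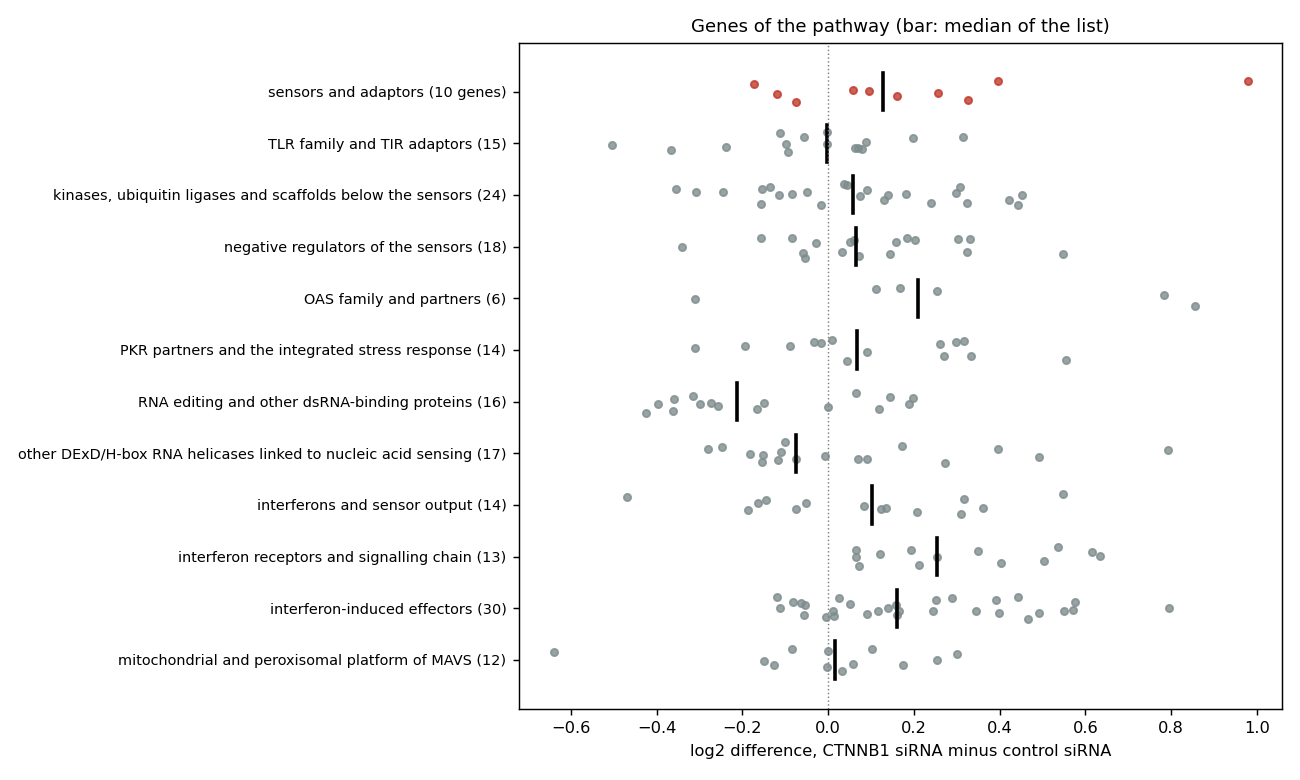
Log2 difference of each measured gene, CTNNB1 siRNA minus control siRNA, for the 10 sensors and adaptors (red, top row) and for the 11 lists of related genes (grey), with the number measured after each name and a black bar at the median. The medians run from -0.21 for RNA editing and double-stranded RNA binding genes to 0.25 for interferon receptors and their signalling chain.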

How the data were processed

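The authors deposited 1 log2 value for each transcript cluster and array. Per the submitters' processing notes, these came from RMA in Affymetrix Expression Console 1.1. The log2 scale was taken from the values. RMA sets all arrays to a common distribution, which hides a shift common to all transcripts. For the summarisation, build and annotation, the settings are not given in the labels or notes used here. Per the labels' protocols, 500 ng of RNA per sample, taken at 48 hours, was labelled. Arrays carry no read depth, so their number limits the precision.

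Of 33297 clusters, 19460 were paired with exactly 1 gene symbol by the platform annotation and were tested. Symbols were updated through RefSeq gene identifiers for 19429. The cluster with the highest mean stood for a gene. Groups, 3 arrays each, were taken from the sample descriptions and compared with limma 3.58.1 in R 4.3.3 (lmFit and eBayes, 2-sided, Benjamini-Hochberg adjustment, threshold 0.05), without a filter, weights or block. Each difference is the CTNNB1 siRNA mean minus the control mean. The procedure was tested on simulated data. Alternatives were a filter on dim clusters, array weights, an intensity trend, the replicate number as a block, quantile normalisation and leaving out each array.

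The 10 genes, the lists and the tests were chosen with earlier results of these data known. The genes named were the 10, CTNNB1, from each list up to 3 with the smallest p, a set of fixed pathway genes, and the 5 most like DDX60. TYK2, MYD88, RNF135, PCBP2, SNRNP200 and ADAD1 lie outside this rule and were chosen after their values were seen. The letters of the ISRE core were set after a first search with a form longer by 1 base, in which the same 4 genes held a match.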

Additional observations from a re-analysis of the deposited data

How the results depend on the processing

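Over 109 values of the 10 genes under the alternatives, 0 passed the threshold in limma (smallest adjusted p = 0.268, for DDX60 with array weights) and 10 had the opposite sign. DDX60, IFIH1, DHX58, EIF2AK2 and MAVS never changed sign. With array weights TICAM1 was 0.21, IRF3 -0.071 and ADAR 0.038. Leaving out 1 array gave RIGI -0.051 to 0.29, TLR3 -0.048 to 0.32, TICAM1 -0.33 to 0.27, IRF3 -0.086 to 0.17 and ADAR -0.16 to 0.012. The members' median was 0.22 with array weights and 0.046 to 0.27 with 1 array left out. Members with groups apart and higher numbered 3 to 5 with 1 array left out, and those apart and lower 0 to 1 (MAVS, without CTNNB1 siRNA replicate 3 or control replicate 2). Of all clusters, 22.3% to 25.7% had groups apart in either direction with 1 array left out, against 13.6% over all arrays.

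Clusters past the threshold numbered 1 over all arrays, 13 with array weights, 0 without dim clusters (670 at an unadjusted p under 0.05) and 0 to 10 with 1 array left out (695 to 1428 at an unadjusted p under 0.05). With the replicate number as a block there were 0 (1123 at an unadjusted p under 0.05), and DDX60 had an adjusted p of 0.743. Residuals of arrays with the same number correlated by 0.092, 0.12 and 0.098, and each of the 6 arrays correlated best with its own number, a hint from the data that the labels do not state.

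List medians moved beyond their spread between arrays as follows. With array weights they were 0.0075 for kinases and scaffolds, 0.37 for the OAS family and partners, -0.019 for PKR partners, -0.075 for RNA editing and 0.34 for interferons and output. Without dim clusters the Toll-like receptor list was -0.10. With 1 array left out the ranges were -0.0038 to 0.080 for kinases and scaffolds, 0.15 to 0.39 for the OAS family and partners, 0.019 to 0.21 for PKR partners, -0.27 to -0.069 for RNA editing and -0.052 to 0.33 for interferons and output. Of the ends of these ranges, some did not move beyond that spread. They were 0.15 for the OAS family and partners, 0.019 for PKR partners, -0.27 for RNA editing and -0.052 for interferons and output. DHX58 has no value without dim clusters, and none of the 10 genes had another cluster to try.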
